A study of Mus musculus with 8 samples.

Results

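The genes described here encode the constitutive proteasome, its activators and its assembly factors in mouse bone marrow-derived dendritic cells (BMDCs). Members were taken by name: every row of the deposited expression table whose symbol is Psm, a letter from a to g, a number and at most 1 further letter, without the immunoproteasome genes Psmb8, Psmb9 and Psmb10. This gave 46 of the 55880 rows. They comprise 16 genes of the 20S core (Psma and Psmb), 20 genes of the 19S regulatory particle (Psmc and Psmd), 5 activators (Psme), the inhibitor Psmf1 and 4 assembly factors (Psmg). The study sequenced polyadenylated RNA from 4 Control and 4 LMF libraries, where LMF stands for a low-frequency magnetic field. In both groups the cells came from the marrow of wild-type C57BL/6 mice, male and 6 weeks old, and were grown for 6 days with IL-4 at 10 ng/mL and GM-CSF at 20 ng/mL. LMF cells are taken to have been incubated for 24 h with ITRs, a name the labels do not explain, and exposed to the field. Control cells are taken to have had neither. The sample titles name only the group, and the treatment entry is the same for every library. RNA was collected 6 h after treatment. The effect of the ITRs and that of the field cannot be told apart in these groups, and a further group named in the series design, with magnetic micromotors, was not analysed here. The series title speaks of a magnetic torque-regulator inside the cell. The labels name no mouse or culture behind any library. The p-values therefore reflect variation among these libraries alone, and that variation may be technical.

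The proteasome degrades proteins that carry ubiquitin chains. Its 20S core is a barrel in which outer rings of alpha subunits (Psma) gate the entrance and inner rings of beta subunits (Psmb) hold the proteolytic sites. The 19S particle caps the barrel: its ATPases (Psmc) unfold substrates, and its other subunits (Psmd) bind ubiquitin chains and remove them. Activators of the 11S family and PA200 (Psme) can replace the 19S cap, and chaperones (Psmg and some Psmd) build the complex. In dendritic cells the proteasome also makes the peptides that MHC class I presents. Mammalian cells short of proteasome activity raise many of these genes together through the transcription factor NRF1, encoded by Nfe2l1, which binds antioxidant response elements (AREs).

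Promoters are shown for the 4 19S genes with the largest increases among those called (Psmd10, Psmd14, Psmd1 and Psmd12), for Psmb6, the largest increase called in the 20S core, and for Psmd4, a 19S gene whose levels did not pass the test. Each runs from 250 bases before to 50 bases after the start listed in RefSeq, on build GRCm38.p6, written 5′ to 3′ on the gene's strand. They lie as follows: Psmd10 at chrX:140956662-140956961 on the minus strand, Psmd14 at chr2:61711444-61711743 on the plus strand, Psmd1 at chr1:86064369-86064668 on the plus strand. The others are Psmd12 at chr11:107479278-107479577 on the plus strand, Psmb6 at chr11:70525107-70525406 on the plus strand and Psmd4 at chr3:95042565-95042864 on the minus strand. Capitals mark letters matching the ARE core TGANNNNGC or the CCAAT box, on either strand.
Psmd10: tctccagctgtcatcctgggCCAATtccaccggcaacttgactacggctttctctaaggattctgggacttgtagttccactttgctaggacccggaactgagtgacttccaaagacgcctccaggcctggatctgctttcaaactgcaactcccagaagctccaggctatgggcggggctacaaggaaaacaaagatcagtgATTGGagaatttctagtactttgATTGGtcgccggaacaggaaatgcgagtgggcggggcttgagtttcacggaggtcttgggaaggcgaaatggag
Psmd14: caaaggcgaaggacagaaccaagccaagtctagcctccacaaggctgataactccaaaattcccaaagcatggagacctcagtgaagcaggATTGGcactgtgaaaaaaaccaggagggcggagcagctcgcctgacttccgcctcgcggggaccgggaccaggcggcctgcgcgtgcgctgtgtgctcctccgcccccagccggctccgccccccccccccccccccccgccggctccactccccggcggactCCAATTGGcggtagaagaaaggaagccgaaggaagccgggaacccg
Psmd1: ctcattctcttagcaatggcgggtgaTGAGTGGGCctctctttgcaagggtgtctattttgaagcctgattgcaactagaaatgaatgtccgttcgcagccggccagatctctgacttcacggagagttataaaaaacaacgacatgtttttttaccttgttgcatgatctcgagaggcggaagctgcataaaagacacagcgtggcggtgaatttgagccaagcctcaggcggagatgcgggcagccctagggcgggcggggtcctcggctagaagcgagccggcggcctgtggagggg
Psmd12: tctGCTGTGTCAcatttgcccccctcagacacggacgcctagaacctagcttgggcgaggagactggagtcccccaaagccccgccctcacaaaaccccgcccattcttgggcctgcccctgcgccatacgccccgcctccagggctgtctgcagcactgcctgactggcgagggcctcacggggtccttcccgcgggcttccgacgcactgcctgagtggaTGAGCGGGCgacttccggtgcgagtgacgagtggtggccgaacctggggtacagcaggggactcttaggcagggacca
Psmb6: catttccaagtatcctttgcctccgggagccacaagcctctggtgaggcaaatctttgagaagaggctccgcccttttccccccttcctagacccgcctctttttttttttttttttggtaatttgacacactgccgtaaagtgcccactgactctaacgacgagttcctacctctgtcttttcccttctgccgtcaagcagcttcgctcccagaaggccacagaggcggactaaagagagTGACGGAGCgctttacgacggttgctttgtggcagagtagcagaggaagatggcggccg
Psmd4: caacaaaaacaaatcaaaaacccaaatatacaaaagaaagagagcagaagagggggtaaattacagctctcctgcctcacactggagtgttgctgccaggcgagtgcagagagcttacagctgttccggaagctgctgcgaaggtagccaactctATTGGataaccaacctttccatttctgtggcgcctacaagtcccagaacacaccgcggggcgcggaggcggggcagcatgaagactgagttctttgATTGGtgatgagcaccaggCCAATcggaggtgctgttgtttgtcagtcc
The promoters of Psmd10, Psmd14 and Psmd4 each held 3 CCAAT matches and no ARE match. Psmd10 and Psmd14 rose in LMF and Psmd4 did not pass the test. A link between the matches and the changes was not tested. In Psmd14 a forward and a reverse match overlap. Psmd1 held 1 ARE match, Psmd12 held 2 and Psmb6 held 1, which ends at the base before the start. In Psmd12 and Psmb6 a match also has the longer form TGACNNNGC. Of the 46 members, 38 had an entry in the promoter table, and 21 of these (55.3%) held the ARE core, against 45.0% of 27025 genes with an entry. The 8 without an entry are Psma8, Psmb1, Psmb2, Psmb7, Psmc3, Psmd3, Psmd7 and Psmg2. The longer form was found in 15.8% of the members and in 13.99% of all genes. A CCAAT match was present in 34.2% of the members and in 41.1% of all genes. The ARE core was found in 8 of 17 members that rose (47.1%) and in 13 of 21 others (61.9%). Its longer form was in 4 of 17 (23.5%) and 2 of 21 (9.52%), and a CCAAT match in 7 of 17 (41.2%) and 6 of 21 (28.6%). These matches are descriptions of letters in a window and not binding sites.

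Library totals ran from 16592672 to 21585750 counts, of which 14074 genes were tested with edgeR's quasi-likelihood test. Adjusted p-values are Benjamini-Hochberg values over all 14074, and a gene is called at 0.05. Levels are given in CPM, the count scaled to the library total after TMM scaling. LMF replicate 4 stood apart from the other libraries on the second principal component, which carried 10.7% of the variance, at -27.2 against 6.79 to 14.03 in the other LMF libraries. Of 12 tested dendritic cell markers 5 were called higher in LMF and 1 lower, with summed levels of 9127 to 9593 CPM in Control and 8979 to 10264 CPM in LMF.

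Of the 46 proteasome genes, 20 rose in LMF cells and 0 fell. Psmb11 had too few counts to be tested, which leaves 45 tested and 25 that did not pass. The share that rose was 44.4%, beside 17.5% of all tested genes called higher and 16.9% called lower. The changes were small, with log2 fold changes of 0.13 to 0.50 among the called genes, or 9.46% to 41.2%. Most members are abundant genes: 40 had a mean of at least 20 CPM, all 20 called genes among them, and 24.7% of all tested genes at that level were called higher. Over these 40 genes the coefficient of variation within a group had a median of 4.15%. All 4 LMF libraries lay above all 4 Control libraries for 16 members (35.6%), beside 16.1% of all tested genes. That share was not computed for the genes at 20 CPM or more alone. The median log2 fold change of the tested members was 0.14, and that of all tested genes was -0.00. At an unadjusted p under 0.05, 23 members were higher and 0 lower, and DESeq2 and limma-voom each also called 20 higher and 0 lower. The members called by DESeq2 included Psme2 in place of Psmd6. Without LMF replicate 4 the count was 21 higher and 0 lower.

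**Figure D1:**
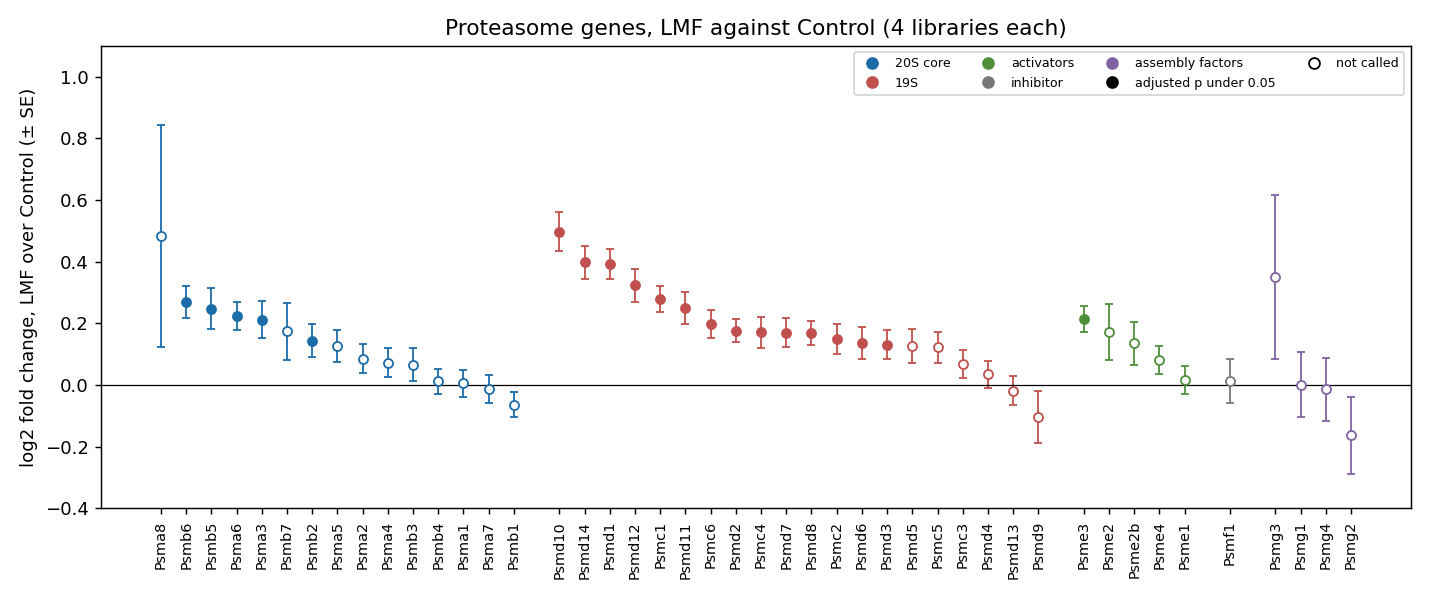
Log2 fold change of LMF over Control (y axis, with bars of 1 SE) for each of the 45 tested proteasome genes (x axis), coloured by class and ordered by size within a class. Filled points passed the edgeR test at an adjusted p of 0.05; they number 14 in the 19S particle, 5 in the 20S core and 1 among the activators, and all lie above 0.

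The 2 groups also differed in markers of other cells, and in bulk RNA fewer cells of a type and less RNA per cell cannot be told apart. Of 12 macrophage markers 8 were called lower and 1 higher, with summed levels of 6778 to 7504 CPM in Control and 4956 to 5231 CPM in LMF. Neutrophil markers were called higher for 6 of 12 and lower for 1, with sums of 2834 to 2917 CPM in Control and 3212 to 3287 CPM in LMF. For mast cells and basophils 2 of 6 markers were called higher, with sums of 178 to 195 CPM in Control and 199.98 to 224 CPM in LMF. No T and NK cell marker of 5 and no B cell marker of 4 was called, with sums of at most 15.04 CPM in any library. None of the markers was at 0. The part of these shifts in the proteasome values was not tested.

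In the alpha ring 2 of 8 Psma genes rose (25%), near the 24.7% of all tested genes at 20 CPM or more called higher, with a median log2 fold change of 0.11 over the 8. Psma6, an alpha ring subunit, was at 115, 103, 106 and 107 CPM in the 4 Control libraries and at 131, 130.2, 125 and 118 CPM in the 4 LMF libraries. Every LMF library was above every Control library, and the log2 fold change was 0.22 ± 0.05 (SE, adjusted p = 0.00017). Psma3, another subunit of the ring, was at 59.5, 53.0, 53.4 and 60.3 CPM in Control and at 69.8, 68.7, 58.9 and 64.6 CPM in LMF. Its groups overlapped through LMF replicate 3, with a log2 fold change of 0.21 ± 0.06 (SE, adjusted p = 0.0049). The remaining subunits did not pass. Psma5 was 0.13 higher on the log2 scale (adjusted p = 0.058), with a call, at adjusted p down to 0.015, without Control replicate 4 or LMF replicate 1. Values for Psma1, Psma2, Psma4 and Psma7 lay between -0.01 and 0.09. Psma8, which replaces Psma7 in testis, was at 0.76 to 1.34 CPM in Control and 0.79 to 2.41 CPM in LMF, too low for a precise value (log2 fold change 0.48 ± 0.36, SE, adjusted p = 0.32).

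In the beta ring 3 of 7 tested Psmb genes rose (42.9%), 2 of them among the catalytic subunits. The share of all tested genes at 20 CPM or more called higher was 24.7%. Psmb6, the caspase-like subunit, was at 93.2, 99.4, 94.4 and 102 CPM in Control and at 117, 131, 108 and 113 CPM in LMF. Its groups did not overlap and the log2 fold change was 0.27 ± 0.05 (SE, adjusted p = 6.2e-05), the largest called in the core. Psmb5, the chymotrypsin-like subunit and the main target of proteasome inhibitor drugs, was at 40.1, 38.2, 43.0 and 46.5 CPM in Control and at 51.3, 54.2, 45.9 and 47.7 CPM in LMF. LMF replicate 3 was below Control replicate 4, and the log2 fold change was 0.25 ± 0.07 (SE, adjusted p = 0.0030). Psmb7, the trypsin-like subunit, was at 20.7, 23.2, 21.96 and 22.3 CPM in Control and at 23.6, 29.5, 19.9 and 26.4 CPM in LMF. It did not pass (log2 fold change 0.17 ± 0.09, SE, adjusted p = 0.15), and LMF replicate 3 was the lowest of all 8 libraries. Without that library Psmb7 was called, at an adjusted p of 0.021.

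Of the non-catalytic beta subunits, Psmb2 was at 67.1, 68.4, 61.7 and 74.0 CPM in Control and at 75.4, 78.5, 73.7 and 71.8 CPM in LMF. Its groups overlapped, and the log2 fold change of 0.14 ± 0.05 (SE) passed at an adjusted p of 0.038. That call was lost under 9 of the 18 alternatives, with adjusted p up to 0.20, among them leaving out Control replicate 1, 2 or 3 or LMF replicate 2 or 3. Psmb1, Psmb3 and Psmb4 had log2 fold changes of -0.06, 0.07 and 0.01 and did not pass. Psmb11, a subunit specific to the thymus, had at most 2 counts in any library and none in Control.

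**Figure D2:**
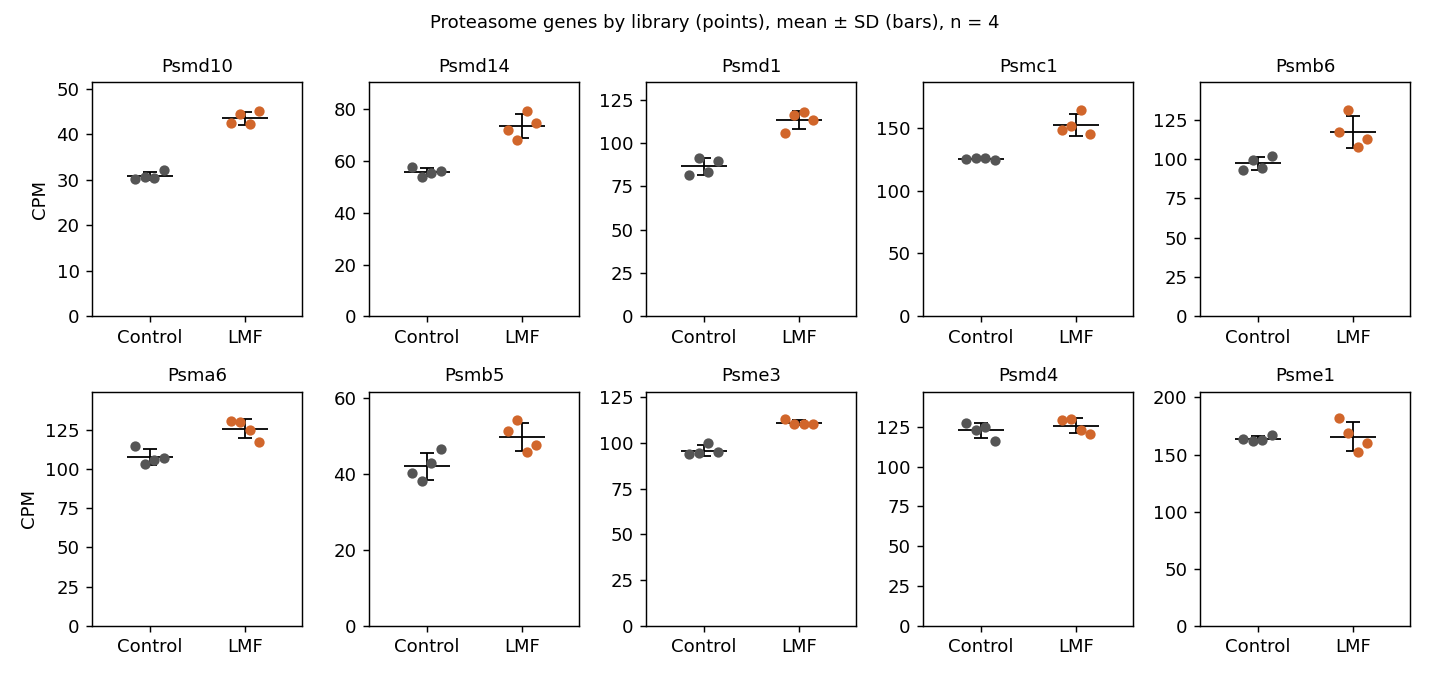
CPM (y axis, from 0) of 10 proteasome genes in the 4 Control and the 4 LMF libraries; points are libraries and bars the mean and SD. LMF points lie above all Control points for Psmd10, Psmd14, Psmd1, Psmc1, Psmb6, Psma6 and Psme3, and the groups overlap for Psmb5, Psmd4 and Psme1.

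Of the 6 ATPases of the 19S particle 4 rose (66.7%), beside 24.7% of all tested genes at 20 CPM or more. Psmc1, whose tail opens the gate of the alpha ring, was at 125, 126, 126 and 124 CPM in Control and at 148, 151, 164 and 145 CPM in LMF. The Control libraries had a coefficient of variation of 0.716%, all LMF libraries were higher, and the log2 fold change was 0.28 ± 0.04 (SE, adjusted p = 2.2e-06). Psmc6, another ATPase of the ring, was at 78.3, 77.1, 78.0 and 79.3 CPM in Control and at 88.7, 89.5, 89.8 and 90.6 CPM in LMF. It had the tightest LMF group of the ATPases, again with no overlap, and a log2 fold change of 0.20 ± 0.05 (SE, adjusted p = 0.00077). Psmc4 was at 81.5, 76.2, 82.7 and 78.8 CPM in Control and at 93.0, 90.5, 93.6 and 82.4 CPM in LMF. LMF replicate 4 lay just below Control replicate 3, and the log2 fold change was 0.17 ± 0.05 (SE, adjusted p = 0.0068). Psmc2 rose by 0.15 (adjusted p = 0.013), a call lost without Control replicate 3, Control replicate 4 or LMF replicate 2, with adjusted p up to 0.065. Psmc5 (0.12, adjusted p = 0.061, called without Control replicate 4 at 0.019) and Psmc3 (0.07, adjusted p = 0.25) did not pass.

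Of the 8 lid genes with a Psmd symbol 7 rose (87.5%), beside 24.7% of all tested genes at 20 CPM or more. The median log2 fold change of the 8 was 0.17. Sem1, a lid gene outside these symbols, is described with the related genes and fell. The lid recognises and deubiquitinates substrates. Psmd14, the metalloprotease that cuts ubiquitin chains from substrates, was at 57.7, 53.9, 55.5 and 56.1 CPM in Control and at 71.8, 68.2, 79.4 and 74.7 CPM in LMF. No LMF library came near the Control range, and the log2 fold change was 0.40 ± 0.05 (SE, adjusted p = 2.6e-07). Psmd12, a scaffold subunit of the lid, was at 61.5, 54.6, 55.5 and 54.9 CPM in Control and at 70.5, 69.6, 72.6 and 71.0 CPM in LMF. Control replicate 1 was the highest of its group, still below every LMF library, and the log2 fold change was 0.32 ± 0.05 (SE, adjusted p = 7.1e-06). Psmd11, a further lid scaffold, rose from 63.2 ± 2.39 to 75.1 ± 1.803 CPM (mean ± SD, n = 4), a log2 fold change of 0.25 (adjusted p = 0.00015).

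Psmd7, the inactive partner of Psmd14, rose from 76.1 ± 1.42 to 85.6 ± 1.13 CPM (mean ± SD, n = 4; log2 fold change 0.17, adjusted p = 0.0042). Psmd8 rose from 261 ± 5.75 to 293 ± 11.99 CPM (mean ± SD, n = 4; log2 fold change 0.17, adjusted p = 0.00060). Psmd3 (0.13, adjusted p = 0.028) and Psmd6 (0.14, adjusted p = 0.045) passed with less margin. Psmd3 lost its call under 5 of the 18 alternatives, with adjusted p up to 0.10, 4 of them leaving out Control replicate 1, 2 or 3 or LMF replicate 2. Psmd6 lost its call under 13, with adjusted p up to 0.22. Among these were the DESeq2 Wald test, the replicate block and leaving out any Control library or LMF replicate 2 or 3. Psmd13 did not pass, at 108 to 119 CPM in Control and 106 to 120.4 CPM in LMF with a log2 fold change of -0.02.

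Among the non-ATPase subunits of the base, Psmd1 and Psmd2 rose and Psmd4 did not pass. Psmd1, a large scaffold, was at 81.7, 91.4, 83.4 and 89.6 CPM in Control and at 106, 116, 118 and 113 CPM in LMF. The groups were well apart, with a log2 fold change of 0.39 ± 0.05 (SE, adjusted p = 3.0e-08), the smallest adjusted p of all members. Psmd2, the scaffold that receives ubiquitin shuttle factors, was at 288 ± 7.50 in Control and 326 ± 8.76 in LMF (mean ± SD, n = 4), with a log2 fold change of 0.18 (adjusted p = 0.00025). Psmd4, a ubiquitin receptor, was at 127, 123, 125 and 116 CPM in Control and at 129, 130.2, 123 and 120.4 CPM in LMF. LMF replicates 1 and 2 lay above the Control range and LMF replicates 3 and 4 inside it. The log2 fold change was 0.03 ± 0.04 (SE, adjusted p = 0.59).

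The Psmd symbols also cover 3 chaperones that assemble the base and leave it afterwards. Psmd10, known as gankyrin, was at 30.3, 30.7, 30.4 and 32.1 CPM in Control and at 42.4, 44.4, 42.3 and 45.2 CPM in LMF. Its LMF libraries all lay above 42 CPM and its Control libraries all below 33 CPM, and the log2 fold change of 0.50 ± 0.06 (SE, adjusted p = 4.8e-08) was the largest called among the members. Psmd5 did not pass, at 51.8 ± 1.75 CPM in Control and 56.6 ± 3.07 CPM in LMF (mean ± SD, n = 4; adjusted p = 0.079, and 0.047 without LMF replicate 3). Psmd9 did not pass either, at 24.7 ± 2.67 and 23.0 ± 1.72 CPM (mean ± SD, n = 4), with a log2 fold change of -0.10 (adjusted p = 0.38). Over the whole 19S class 14 of 20 genes rose (70%), beside 24.7% of all tested genes at 20 CPM or more. All LMF libraries lay above all Control libraries for 13 of the 20 (65%), beside 16.1% of all tested genes, which include genes under 20 CPM.

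Of the 5 activators 1 rose (20%), near the 17.5% of all tested genes and below the 24.7% of those at 20 CPM or more. Psme3, which encodes the nuclear 11S activator PA28 gamma, was at 93.8, 94.4, 99.99 and 95.0 CPM in Control and at 113, 110.5, 110.4 and 110.4 CPM in LMF. The groups did not overlap and the log2 fold change was 0.21 ± 0.04 (SE, adjusted p = 0.00015). Psme1 and Psme2 encode PA28 alpha and beta, the interferon-inducible activator linked to antigen processing. Psme1 was at 164, 162, 162 and 167 CPM in Control and at 182, 169, 152 and 160.0 CPM in LMF. The LMF libraries lay on both sides of the Control range, with a log2 fold change of 0.02 ± 0.04 (SE, adjusted p = 0.82). Psme2 was at 132, 122, 130.3 and 138 CPM in Control and at 171, 152, 142 and 124 CPM in LMF. LMF replicates 1 to 3 were above the Control range and replicate 4 was inside it, so the log2 fold change of 0.17 ± 0.09 (SE) had an adjusted p of 0.20. Without LMF replicate 4 Psme2 was called, at an adjusted p of 0.00052. With all 8 libraries it was also called by the DESeq2 Wald test and by edgeR with no filter on low counts.

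Psme2b, a near copy of Psme2, was at 39.5 ± 1.37 CPM in Control and 43.3 ± 5.25 CPM in LMF (mean ± SD, n = 4; adjusted p = 0.14, and 0.016 without LMF replicate 3). Of the 50-base windows of its transcript 69.3% also occur in another gene's transcript, mostly that of Psme2, so the counts of both genes are uncertain. Psme4, which encodes the activator PA200, was at 114 ± 2.36 and 121 ± 8.10 CPM (mean ± SD, n = 4; adjusted p = 0.19, and 0.018 without LMF replicate 1). The inhibitor gene Psmf1 was at 31.6 ± 2.03 and 31.8 ± 2.01 CPM (mean ± SD, n = 4; adjusted p = 0.91).

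None of the 4 chaperones that assemble the 20S core was called by edgeR, DESeq2 or limma-voom, and none had an unadjusted p under 0.05. Each had a mean under 20 CPM. Psmg1 was at 11.8 ± 0.822 CPM in Control and 11.8 ± 0.952 CPM in LMF (mean ± SD, n = 4). Psmg2, its partner in the first assembly step, was at 11.6 ± 1.73 and 10.4 ± 1.72 CPM (mean ± SD, n = 4; log2 fold change -0.16 ± 0.12, SE, adjusted p = 0.34). Psmg4 was at 14.02 ± 1.246 and 13.9 ± 1.55 CPM (mean ± SD, n = 4). Psmg3, its partner, was at 1.74, 1.81, 1.51 and 1.51 CPM in Control and at 2.69, 2.31, 1.89 and 1.51 CPM in LMF. At this depth its log2 fold change of 0.35 ± 0.26 (SE, adjusted p = 0.33) could not be told from 0.

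Set side by side, 5 of 15 tested 20S genes (33.3%) and 14 of 20 19S genes (70%) rose, with median log2 fold changes of 0.13 and 0.17. Beside these stand 17.5% of all tested genes, and 24.7% of those at 20 CPM or more, called higher. All LMF libraries lay above all Control libraries for 2 of the 20S genes (13.3%) and for 13 of the 19S genes (65%). The share of all tested genes, which include genes under 20 CPM, was 16.1%. Whether these shares differ was not tested, since genes are not replicates. The 19S genes together reached 1958 ± 19.4 CPM in Control libraries and 2210.3 ± 42.4 CPM in LMF libraries (mean ± SD, n = 4), with Control libraries from 1938 to 1984 and LMF libraries from 2172 to 2265. The summed 20S level was 1351 ± 29.1 and 1429.8 ± 59.4 CPM (mean ± SD, n = 4), with ranges of 1326 to 1393 and 1367 to 1489 that overlap. The activators summed to 544 ± 7.44 and 588 ± 28.2 CPM and the assembly factors to 39.0 ± 3.001 and 38.1 ± 3.05 CPM (mean ± SD, n = 4). Within each LMF library the median gene of the 19S class lay 0.16 to 0.19 above the Control mean on the log2 scale, and that of the 20S core 0.07 to 0.14 above it. One library moved the 20S median by more than 1.5 times: without LMF replicate 2 it was 0.0792. The median of the activators was 0.13, with 0.0760 without LMF replicate 2. The 19S median stayed between 0.15 and 0.17 whichever library was left out.

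**Figure D3:**
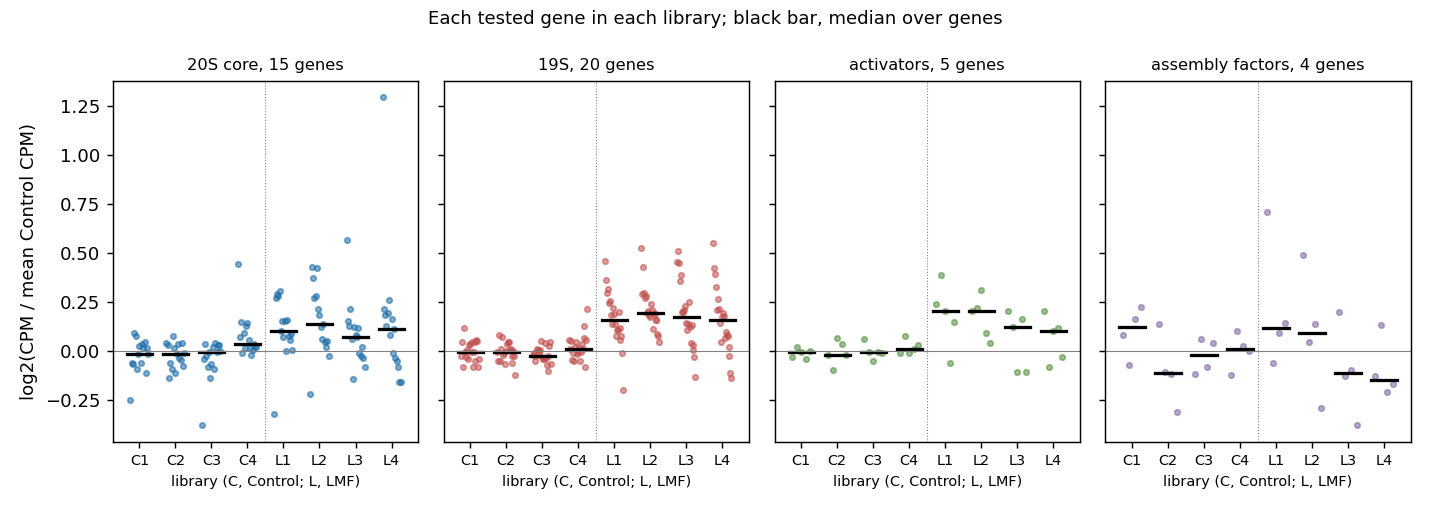
Log2 of CPM over the mean Control CPM (y axis) for every tested gene in each of the 8 libraries (x axis), in 1 panel for each of 4 classes, with a black bar at the median over genes. In the 19S panel the medians of the LMF libraries lie at 0.16 to 0.19, above every Control median, while in the assembly factor panel they lie on both sides of 0.

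Levels of different subunits were compared per gene length with the authors' deposited FPKM, and the order within a class depends on the length used. In the 20S core of Control cells the highest FPKM was that of Psma6 at 87.5 ± 4.599 (mean ± SD, n = 4), followed by Psmb4 at 79.0 ± 2.39 FPKM. Psma5 (63.9 ± 4.90 FPKM) and Psmb2 (56.3 ± 4.003 FPKM, both mean ± SD, n = 4) came next. Psma7 (52.6 ± 1.88 FPKM), Psmb6 (52.0 ± 1.92 FPKM) and Psma1 (49.0 ± 2.18 FPKM, all mean ± SD, n = 4) followed. Per kb of the principal coding transcript Psma7 led instead, at 176 CPM per kb, with Psmb4 at 130.2, Psmb6 at 122, Psma1 at 120.4 and Psma6 at 103 CPM per kb. Per kb of the length listed in the table Psma5 led at 51.9 CPM per kb, with Psma6 at 33.04 CPM per kb. Under all 3 lengths Psmb7 was the lowest of the 14 core genes at or above 20 CPM, at 6.44 ± 0.275 FPKM (mean ± SD, n = 4). The range over these genes was 13.6-fold in FPKM, 9.45-fold per kb of listed length and 9.29-fold per kb of principal transcript. The other catalytic subunits were at 46.7 ± 3.84 FPKM for Psmb5 and 52.0 ± 1.92 FPKM for Psmb6 (mean ± SD, n = 4). The table places Psmb7 across Nek6, a gene on the opposite strand with 20457 counts over the 8 libraries, and strand use in counting is not stated, so reads of the pair cannot be told apart.

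In the 19S particle the highest FPKM was that of Psmd8 at 85.4 ± 1.78 and the lowest that of Psmd9, an assembly chaperone, at 3.41 ± 0.351 (mean ± SD, n = 4). Psmd9 was lowest under all 3 lengths, while Psmc1 led per kb of listed length at 38.9 CPM per kb, ahead of Psmd8 at 32.4 CPM per kb. The genes with the largest called increases were at 21.02 ± 0.437 FPKM (Psmd10), 19.8 ± 0.642 FPKM (Psmd14) and 11.9 ± 0.589 FPKM (Psmd1) in Control (mean ± SD, n = 4). In LMF they reached 29.5 ± 0.915, 25.99 ± 1.82 and 15.6 ± 0.688 FPKM (mean ± SD, n = 4). The median 19S gene stood at 0.474 times the median 20S gene in Control FPKM, and at 0.416 and 0.568 times it per kb of listed length and of principal transcript. Psme1 and Psme2 were at 74.2 ± 0.954 and 74.2 ± 3.56 FPKM in Control (mean ± SD, n = 4), and Psme4 was lowest of the activators, under all 3 lengths, at 13.7 ± 0.224 FPKM (mean ± SD, n = 4).

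**Figure D4:**
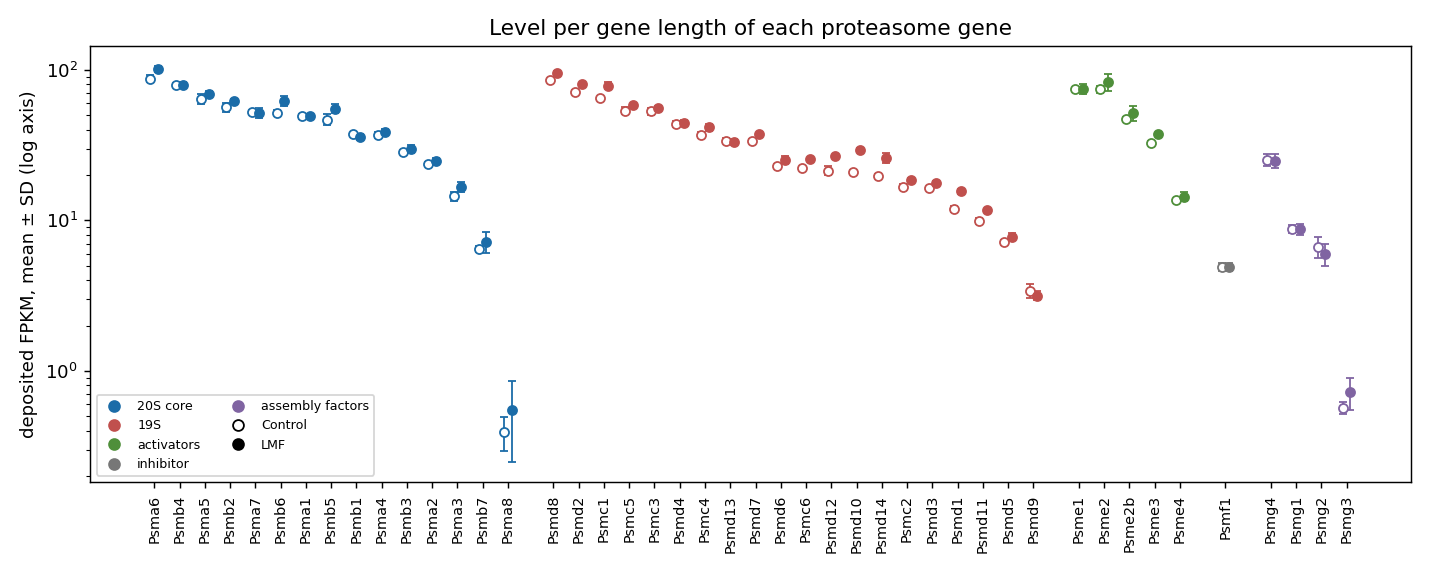
Deposited FPKM (y axis, log scale, mean and SD of 4 libraries) of 45 proteasome genes (x axis), by class and ordered by level, with open points for Control and filled points for LMF. On this scale Psma6 leads the 20S core at 87.5 FPKM in Control and Psmd8 the 19S class at 85.4 FPKM, an order that other lengths change, while Psma8 and Psmg3 lie below 1 FPKM.

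The counts of some members may include reads of near-identical copies. Over 50% of the 50-base windows of Psma5, Psmb3, Psmb5, Psme2 and Psme2b also occur in another gene's transcript, and 14.04% to 26.4% do for Psma3, Psma4, Psmc1, Psmd2, Psmd11, Psme1 and Psmg3. Of the genes that rose, Psma3, Psmb5, Psmc1, Psmd2 and Psmd11 are on these lists, and their values are uncertain to that extent. Psmd1 shares 8.36% of its windows with an overlapping gene model that had 0 counts. The table also places Psma2, Psma3, Psmc3, Psmd13, Psme1 and Psme2b across other counted genes, whose reads may not be fully separate from theirs. The same holds for Psmb9, Txnl1 and Mafg among the related genes.

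The immunoproteasome genes, which replace the catalytic beta subunits in cells that present antigen, were not called. Psmb8 was at 33.6 ± 2.80 CPM in Control and 33.3 ± 1.90 CPM in LMF, Psmb9 at 55.6 ± 5.60 and 53.9 ± 8.27 CPM, and Psmb10 at 107 ± 3.55 and 101 ± 8.18 CPM (mean ± SD, n = 4). Their adjusted p-values were 0.92, 0.79 and 0.20, where Psmb10 was called lower without LMF replicate 1 (adjusted p = 0.048), and DESeq2 and limma-voom called none of the 3 either. None had an unadjusted p under 0.05. Their median log2 fold change was -0.05, and ran from -0.12 without LMF replicate 1 to -0.00279 without Control replicate 1.

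Of 11 proteins that bind, regulate or build the proteasome outside the Psm symbols, 6 (54.5%) were called higher and 2 lower. Over all tested genes 17.5% were called higher and 16.9% lower, with 24.7% higher at 20 CPM or more. Zfand5, which stimulates the proteasome, was at 134, 136, 134 and 134 CPM in Control and at 189, 224, 226 and 235 CPM in LMF (log2 fold change 0.70 ± 0.05, SE, adjusted p = 1.3e-12). Its groups were far apart, and its increase exceeded that of every called member. Its relative Zfand2a, which joins the proteasome under arsenite stress, rose by 0.34 on the log2 scale (adjusted p = 5.1e-06). Adrm1, a ubiquitin receptor of the 19S base, rose by 0.28 ± 0.05 (SE, adjusted p = 3.9e-05), unlike Psmd4, the receptor described above, though that difference was not tested. Usp14, Txnl1 and Ecpas also rose, by 0.20, 0.27 and 0.12. The call of Ecpas was lost under 6 of the 18 alternatives, with adjusted p up to 0.11. These were no filter on low counts, both FPKM fits and leaving out Control replicate 3 or LMF replicate 3 or 4. Akirin2, which brings proteasomes into the nucleus, fell by 0.24 on the log2 scale (adjusted p = 0.00077), and Sem1, a small lid subunit, fell by 0.16 (adjusted p = 0.037). The call of Sem1 was lost under 7 alternatives, with adjusted p up to 0.16. These were the DESeq2 Wald test, both FPKM fits and leaving out Control replicate 2 or 4 or LMF replicate 3 or 4. Pomp, the maturation factor of the 20S core, was 0.04 higher (adjusted p = 0.58), and Uchl5 and Ube3c did not pass, the latter with a call only without LMF replicate 1 among the 18 alternatives.

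Among 11 genes of the NRF1 and NRF2 pathway, 7 (63.6%) were called higher and 1 lower. Beside these stand 17.5% of all tested genes called higher and 16.9% lower, with 24.7% higher at 20 CPM or more. Nfe2l1 was at 233, 233, 224 and 233 CPM in Control and at 303, 283, 300.4 and 273 CPM in LMF (log2 fold change 0.33 ± 0.04, SE, adjusted p = 1.6e-08). Nfe2l2, which encodes the related factor NRF2, rose by 0.60 ± 0.04 (SE, adjusted p = 3.5e-16). Ddi2, the protease that cuts NRF1 into its active form, was at 116, 115, 117 and 115 CPM in Control and at 84.6, 83.9, 79.8 and 91.1 CPM in LMF, and fell by 0.45 on the log2 scale (adjusted p = 5.0e-10). The small Maf partners Maff, Mafk and Mafg rose by 0.93, 0.50 and 0.22, and the unfoldase gene Vcp by 0.17. Sel1l rose by 0.10, a call lost under 11 of the 18 alternatives, among them leaving out Control replicate 2, 3 or 4 or LMF replicate 3 or 4 and the replicate block (adjusted p up to 0.17), and Ngly1, Syvn1 and Keap1 did not pass. Of 16 genes for ubiquitin and its delivery, 9 (56.25%) were called higher and 0 lower by edgeR, beside the same shares of all tested genes. At an unadjusted p under 0.05 the counts were also 9 and 0. With any 1 library left out, 5 to 7 were called higher. Rad23b, which encodes a shuttle factor that brings substrates to the proteasome, was at 92.4, 97.3, 94.5 and 95.0 CPM in Control and at 113, 117, 111 and 116 CPM in LMF. Its groups did not overlap and it rose by 0.27 on the log2 scale (adjusted p = 4.5e-06).

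**Figure D5:**
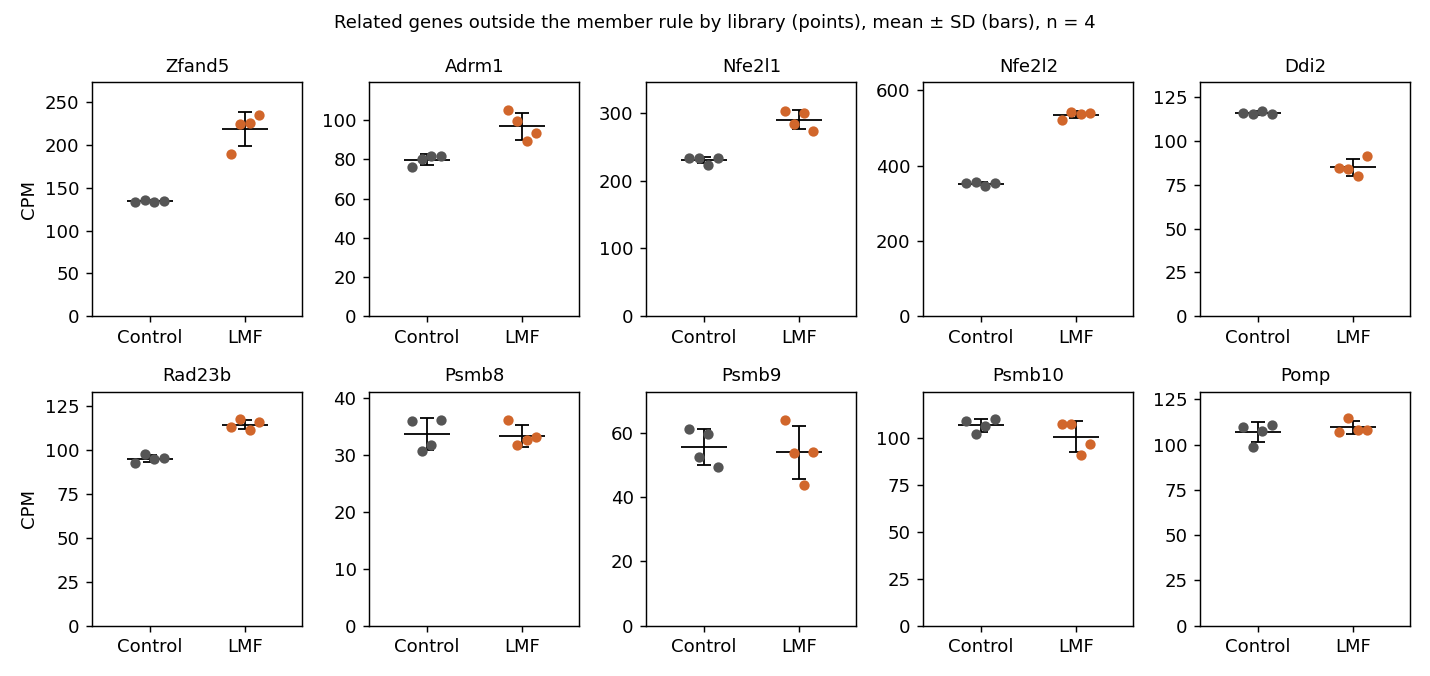
CPM (y axis, from 0) of 10 proteasome-related genes outside the Psm rule in the 4 Control and 4 LMF libraries; points are libraries and bars the mean and SD. LMF libraries are above all Control libraries for Zfand5, Adrm1, Nfe2l1, Nfe2l2 and Rad23b and below them for Ddi2, and the groups overlap for Psmb8, Psmb9, Psmb10 and Pomp.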

How the data were processed

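The authors deposited 1 table with whole-number read counts for each gene and, beside them, the authors' FPKM values. Trimmomatic, HISAT2 2.0.5, HTSeq, DESeq2 and build mm10 are listed, without roles, per the submitters' processing notes. The table's gene coordinates are not those of mm10, so no build is stated for them. The 8 libraries carry 1 treatment entry in common, so groups were taken from the sample titles.

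Counts were tested with edgeR 4.0.16 (robust quasi-likelihood test with only the group in the model, filterByExpr, TMM) in R 4.3.3 over 14074 genes, after the test was checked on simulated data. The SE divides the absolute log2 fold change by the root of F. CPM use TMM-scaled totals. DESeq2 1.42.0, limma 3.58.1 and the other alternatives are in the closing section. Replicate numbers did not pair the libraries. Libraries of a group differed by more than counting noise, and each was counted once. That difference cannot show whether they came from separate mice or cultures. Totals of 16592672 to 21585750 counts limit genes under about 2 CPM most.

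Members and lists were chosen with earlier results of these data known. Named in full were, per class, the called members with the largest changes, 20 genes fixed by name, and the called genes with the smallest adjusted p of each related list. Others were added after their values were seen. Promoters come from RefSeq (GRCm38.p6), and windows of 50 bases from GENCODE M21 transcripts. Some genes of the ubiquitin list are not reported here singly. Paaf1 was not found by that symbol and was not analysed here. Alternatives changed the scaling, the test, the filter, the unit (log2 of FPKM plus 1 or 0.1), the replicate block and the libraries used.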

Additional observations from a re-analysis of the deposited data

Results flagged for a closer look

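Each of the 57 genes examined was checked in both groups for 1 library far from the other 3, 114 checks in all. About 1 in 20 is flagged by chance, which would be 5.70, and 8 were. Psma1 was at 134 CPM in Control replicate 1, with the other Control libraries at 148 to 149 CPM. Psma7 was at 153 CPM in Control replicate 2 against 163 to 165 CPM. Psmc5 was at 81.5 CPM in Control replicate 4 against 71.5 to 73.2 CPM, and without that library it was called higher in LMF, at an adjusted p of 0.019. Psmd12 was at 61.5 CPM in Control replicate 1 against 54.6 to 55.5 CPM, and kept its call without it. Psme3 was at 113 CPM in LMF replicate 1 against 110.4 to 110.5 CPM. Outside the members, Nfe2l2 was at 345 CPM in Control replicate 3 against 354 to 355 CPM, Nfe2l1 at 224 CPM in the same library against 233 CPM, and Nploc4 at 152 CPM in LMF replicate 1 against 155 to 156 CPM.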

How the results depend on the processing

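Leaving out 1 library at a time gave 16 (without Control replicate 3, and also without LMF replicate 2) to 22 members called higher, and the other 10 alternatives gave 18 to 20, with 0 lower throughout. No called member changed sign, and 16 of the 20 kept their call under all 18 alternatives; Psmb2, Psmc2, Psmd3 and Psmd6 did not. The replicate block left Psmd6 and Sel1l uncalled and changed no other call of a named gene, and the deviations of same-numbered libraries correlated at -0.013 to 0.028. Activators called were 2 with the DESeq2 Wald test and with no filter, and 1 to 2 over the left-out libraries. Genes of the other proteasome proteins called lower were 1 with the DESeq2 Wald test and both FPKM fits, and 1 to 2 over the left-out libraries. Ubiquitin and delivery genes called higher were 5 with upper-quartile factors, library size, no filter or the replicate block, and 5 to 7 over the left-out libraries. Immunoproteasome genes called lower were 0 to 1.

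Over the left-out libraries the median log2 fold change ran from 0.0792 to 0.171 (20S core), 0.0760 to 0.185 (activators), 0.108 to 0.181 (other proteasome proteins), -0.120 to -0.00279 (immunoproteasome, with -0.085 under limma-voom) and 0.0988 to 0.145 (ubiquitin). Uncalled genes near 0 changed sign. Psma1 was at -0.0041 with upper-quartile factors, -0.00085 with library size, -0.0025 with no filter and -0.0016 with either FPKM fit. Psmg1 was at -0.0088, -0.0057 and -0.0070 in the first 3 of these, -0.0012 with the CPM filter, -9.8e-05 with the replicate block, and -0.0062 and -0.0070 with FPKM pseudocounts of 1 and 0.1. Over the left-out libraries values ran from -0.034 to 0.029 (Psma1), -0.049 to 0.039 (Psmg1), -0.048 to 0.029 (Psma7), -0.012 to 0.029 (Psmb4), -0.051 to 0.0079 (Psmd13), -0.034 to 0.052 (Psme1), -0.022 to 0.052 (Psmf1), -0.068 to 0.044 (Psmg4), -0.054 to 0.020 (Psmb8), -0.145 to 0.037 (Psmb9), -0.067 to 0.052 (Keap1) and -0.24 to 0.32 (Rps27a). Keap1 was at 0.0087 with limma-voom. The cause was not tested. The highest 19S level was 14.8 times the lowest in CPM per kb of listed length, against 25.03 times in FPKM. The longer ARE form was in 15.8% of members. Levels per length of the GENCODE M21 principal transcript and counts of each listed start were added after seeing the data. Depth limits Psma8 and Psmg3, whose SE exceeded 0.2.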

Other observations

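Rps27a, which encodes ubiquitin fused to a ribosomal protein, varied far more between libraries of a group than any member at or above 20 CPM. It was at 351, 105, 361 and 107 CPM in the 4 Control libraries and at 218, 353, 287 and 81.7 CPM in the 4 LMF libraries, with coefficients of variation of 62.5% and 49.3%. Both groups held libraries below 110 CPM and libraries above 285 CPM. Of the rows for copies named after a proteasome gene with -ps in the symbol, Psma5-ps was at 4.10 to 6.88 CPM over the 8 libraries. Psmb5-ps, Psmb6-ps, Psmb6-ps2 and Psmb7-ps2 had at most 4 counts in any library. Genes under other symbols that share windows with members, such as Gm8394 with Psma5 and Gm3375 with Psmb5, were not examined.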
